A study of Mus musculus with 8 samples.

Results

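The epidermal differentiation complex is a run of genes on chromosome 3 of the mouse that code for proteins of the cornified envelope, the crosslinked protein shell of dead skin cells. Its genes were examined in primary myofibroblastic hepatic stellate cells (pMF-HSCs), the collagen-secreting form that vitamin A-storing stellate cells of the liver take in culture. Members were taken by name, as genes called Lce or Sprr followed by a digit, together with Ivl, Flg, Flg2, Hrnr, Rptn, Crnn, Tchh, Tchhl1, Smcp, Lelp1, Kprp and Lor. This gave 49 of the 40840 genes in the deposited tables, made of 21 Lce genes, 16 Sprr genes and 12 neighbours. The set was proposed because Lce genes stood among the largest increases in these very libraries, so that levels, fold changes and counts of members below describe the choice and carry no test.

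RNA-seq libraries from 4 control and 4 OGTi cultures were compared. All cells came from C57BL/6J males aged 15 to 18 weeks, for which the labels name no transgene or deletion, and were separated by density gradient, sorted on retinol autofluorescence and cultured for 7 days in medium with serum. Over the next 24 h they were given either the vehicle DMSO (control) or OSMI-1 at a concentration of 50 µM (OGTi). OSMI-1 blocks OGT, the transferase that attaches the sugar O-GlcNAc to nuclear and cytoplasmic proteins. A control and an OGTi library of the same replicate number were paired in the study, and whether a replicate came from a single animal or from pooled animals is not given in the sources used here. Cultures were treated with a single inhibitor at a single dose and time.

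Libraries held 30068876 to 37372420 expected counts. OGTi replicate 4 had a count in 23746 genes, against 19035 to 20293 in the other 7 libraries. Of 12 stellate cell markers, all were tested and Lrat, Pdgfrb, Pdgfra and Hgf were lower in OGTi, while the summed markers spanned 2680.6 to 4578.4 TPM in control and 2670.0 to 3703.4 TPM in OGTi. TPM is transcript abundance corrected for gene length and depth. Most of the stellate sum was Acta2, at means of 2156.8 TPM in control and 1792.9 TPM in OGTi. At an unadjusted edgeR p under 0.05, 7 of the 12 stellate markers were lower and 0 were higher. Among 15 keratinocyte markers, the basal keratins Krt5, Krt14 and Krt15 and the wound-induced Krt6a had no count in any library, and Trp63, the master regulator of stratified epithelia, had counts in OGTi replicate 4 alone. Summed keratinocyte markers spanned 2.72 to 5.97 TPM in control and 3.06 to 7.56 TPM in OGTi, and 0 of the 8 tested were called by edgeR, where 3 had an unadjusted p under 0.05. Col17a1 was called lower in 6 of 13 alternatives, 3 of them edgeR fits (library totals, no low-count filter and without replicate 4), Cdh1 higher by DESeq2 alone, and Epcam higher by limma with 0.1 added. Markers of other liver cells gave few calls, Sox9 higher and Krt19 lower among 8 cholangiocyte markers, Cd68 higher among 6 of macrophages, Lyve1 lower among 6 of endothelium, Krt19 lower among 5 tested of mesothelium and Cyp2e1 higher among 3 tested of hepatocytes. Krt19 lost its call in 7 and Lyve1 in 5 of 13 alternatives, for both whenever a replicate was left out. Summed macrophage markers spanned 49.8 to 169 TPM in control and 87.5 to 226 TPM in OGTi, summed cholangiocyte markers 331 to 657 and 129 to 563 TPM, and summed mesothelial markers 87.2 to 141 and 47.5 to 75.2 TPM. Summed endothelial and hepatocyte markers were at most 1.67 TPM in any library. The part of these cells in the results below was not tested. In bulk RNA, more cells that express a gene and more RNA per cell cannot be told apart.

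In the epidermis, the complex is switched on as keratinocytes leave the basal layer. Involucrin (Ivl) and envoplakin form the first scaffold of the envelope, small proline-rich proteins (Sprr) bridge it, loricrin (Lor) fills it, and late cornified envelope proteins (Lce) are added last, all joined by transglutaminases. The S100-fused type proteins (filaggrin Flg, Flg2, hornerin Hrnr, repetin Rptn, cornulin Crnn, trichohyalin Tchh and Tchhl1) carry a calcium-binding S100 domain followed by long repeats, and bundle keratin or hair-sheath filaments. Sprr genes are also known to respond to stress and injury outside the skin. In mouse keratinocytes, the oxidative stress factor NRF2 raises Lce1 and Sprr2 genes, and AP-1 factors drive Ivl and Sprr1a.

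Promoters were read from RefSeq sequences that span 250 bases before to 50 bases after the gene start. Of the 49 members, 45 had an entry, and Lce1f, Kprp, Sprr2g and Sprr2j-ps had none. The sequences were listed for GRCm38.p6, and 42 were placed on GRCm39, the build of the deposited files, by a single exact match. Those of Sprr2a1, Sprr2a2 and Sprr2a3 matched 3 places each and are given no position. The letters TGANTCA, bound by AP-1, were found in 16 of 45 member promoters, against 7.81% of all 32851 promoters of the same length. They were found in 0 of 20 Lce promoters but in 7 of 10 Sprr2 promoters. They were present at position -146 and again at -116 in Sprr1a, counted in bases before the start, at -116 in Ivl, and between -193 and -198 in the 7 Sprr2 genes, with a further match at -182 in Sprr2k. The letters GGAATG, bound by TEAD factors, were present in 5 of 20 Lce promoters and in 14.7% of all promoters. Among Lce1 genes they were present in 4 of 13, those of Lce1g, Lce1i, Lce1l and Lce1c. The core of the NRF2 element, TGACNNNGC, was present in 5 of 20 Lce promoters, against 12.4% of all promoters. Among Lce1 genes it was present in 1 of 13, among Lce3 genes in 3 of 6 and among Sprr2 genes in 1 of 10. It took the form TGACAGAGC, on the opposite strand, in Lce3c, Lce3d, Lce3e and Lce6a, and the fifth Lce promoter was that of Lce1d. Both strands were searched, the list of 11 motifs was drawn up after the expression values had been seen, and a match is a run of letters, not a binding site.

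The 200 bases before the start are shown for 7 members whose expression is compared below, 4 Lce genes, among them the nearly silent Lce1a1, and the 3 members of highest TPM in control. Capitals mark the AP-1, TEAD and NRF2 letters given above, on either strand. In Sprr1a the first capital run joins an NRF2 core on the opposite strand to an overlapping AP-1 match. All sequences run 5′ to 3′ along the gene's own strand.
Lce1g, chr3:92659646-92659845, minus strand: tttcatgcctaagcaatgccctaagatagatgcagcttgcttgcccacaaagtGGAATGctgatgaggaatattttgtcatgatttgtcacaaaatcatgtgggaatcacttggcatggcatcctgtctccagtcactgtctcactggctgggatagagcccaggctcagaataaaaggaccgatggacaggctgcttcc
Lce1a2, chr3:92577623-92577822, minus strand: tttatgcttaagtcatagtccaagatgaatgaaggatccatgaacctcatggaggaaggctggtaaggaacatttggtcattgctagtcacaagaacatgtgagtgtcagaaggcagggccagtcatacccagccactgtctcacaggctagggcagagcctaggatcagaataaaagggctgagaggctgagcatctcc
Lce1a1, chr3:92555615-92555814, minus strand: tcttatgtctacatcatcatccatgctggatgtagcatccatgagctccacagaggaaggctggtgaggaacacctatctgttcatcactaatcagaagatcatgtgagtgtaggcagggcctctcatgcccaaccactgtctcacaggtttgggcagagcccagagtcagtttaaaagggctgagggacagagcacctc
Lce3c, chr3:92851593-92851792, plus strand: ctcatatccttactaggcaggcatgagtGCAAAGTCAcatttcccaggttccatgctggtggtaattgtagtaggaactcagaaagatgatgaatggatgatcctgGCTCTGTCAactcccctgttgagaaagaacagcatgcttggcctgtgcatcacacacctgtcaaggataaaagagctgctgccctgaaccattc
Sprr1a, chr3:92393189-92393388, minus strand: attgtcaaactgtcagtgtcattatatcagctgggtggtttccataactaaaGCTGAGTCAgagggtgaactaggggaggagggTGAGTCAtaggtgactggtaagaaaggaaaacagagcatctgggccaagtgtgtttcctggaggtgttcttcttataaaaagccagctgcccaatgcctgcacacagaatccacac
Sprr2h, chr3:92292792-92292991, plus strand: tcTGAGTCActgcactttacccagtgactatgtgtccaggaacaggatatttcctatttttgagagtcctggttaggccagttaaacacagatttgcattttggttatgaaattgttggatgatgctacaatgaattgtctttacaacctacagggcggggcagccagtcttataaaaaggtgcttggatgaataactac
Ivl, chr3:92481043-92481242, minus strand: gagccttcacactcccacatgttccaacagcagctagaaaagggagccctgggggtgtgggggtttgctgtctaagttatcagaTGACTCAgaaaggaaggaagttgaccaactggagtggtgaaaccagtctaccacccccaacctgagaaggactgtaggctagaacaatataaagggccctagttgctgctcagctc

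Among the other motifs, GGGCGG (GC box) was found in 0 of 20 Lce promoters, against 35.7% of all promoters, and GCGTG, the core bound by the aryl hydrocarbon receptor, in 1 of 20 against 32.4%. The TATA box letters TATAAA were present in 20 of 45 member promoters, 4 of 20 of Lce and 7 of 10 of Sprr2 genes, and in 13.6% of all promoters. All 7 Sprr2 matches lay at -29. Of the 4 Lce matches, those of Lce1d and Lce1m lay at -30 and -29. Those of Lce3e and Lce6a lay on the opposite strand at -243 and -218. The p53 half-site was found in 0 of 20 Lce promoters and in 8.36% of all, and the grainyhead letters AACNGGTT in 0 of 20 and in 2.09% of all. The CACCC box (CCACCC, 31.5% of all promoters), the C/EBP letters (TTGCNNAA, 10.8%) and the E-box (CACGTG, 7.15%) were each found in 1 of 20 Lce promoters. Aligned over their whole length, promoters of pairs of Lce1 genes were identical at a median of 65.7% of positions (range 51.0% to 86.0%, 78 pairs), those of Lce1 with Lce3 genes at 52.8%, and those of pairs of Sprr2 genes at 63.1%. Promoters of Lce1 with Sprr2 genes, which belong to different families, were at 51.6%, close to the value of Lce1 with Lce3 genes. Lce1g was 86.0% identical to Lce1i and 84.6% to Lce1h, while Lce1a1 and Lce1a2 were 74.6% identical.

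After OGTi, the Lce genes were higher and the main Sprr gene and involucrin were lower. Of the 49 members, 35 reached the total of 10 counts over the 8 libraries needed to enter the edgeR quasi-likelihood fit. Of these, 19 were called higher (16 Lce genes, Sprr2g, Sprr2i and Kprp) and 2 were called lower (Sprr1a and Ivl) at an adjusted p (Benjamini-Hochberg) no higher than 0.05. Of all 19963 genes tested, 18.4% were called, 8.13% as higher and 10.2% as lower. These were 1623 higher and 2043 lower genes. Scaled by upper quartiles, 2051 were higher and 1732 lower and the median of all log2 fold changes moved from 0.01 to 0.13, and scaled by library totals, 1256 were higher and 2911 lower and it moved to -0.19. The members were picked from this contrast, and 12 of the 35 had under 10 counts in the 4 control libraries together and thus entered through OGTi. Of the 18 Lce genes tested, 9 entered in that way. All 18 were higher in OGTi in 4 of 4 pairs with no overlap between groups, a pattern found in 11.5% of all genes tested for higher values. The median log2 fold change was 5.87 for Lce, 0.93 for Sprr and 0.01 for all genes tested. With genes that had no control count set at their lower bound, the Lce median was 5.42. Ranked by log2 fold change among all genes tested, members took 7 of the first 10 places, 11 of the first 50 and 14 of the first 100, and 13 of these 14 were Lce genes. These ranks restate how the members were picked, and genes with few control counts have imprecise fold changes.

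**Figure D1:**
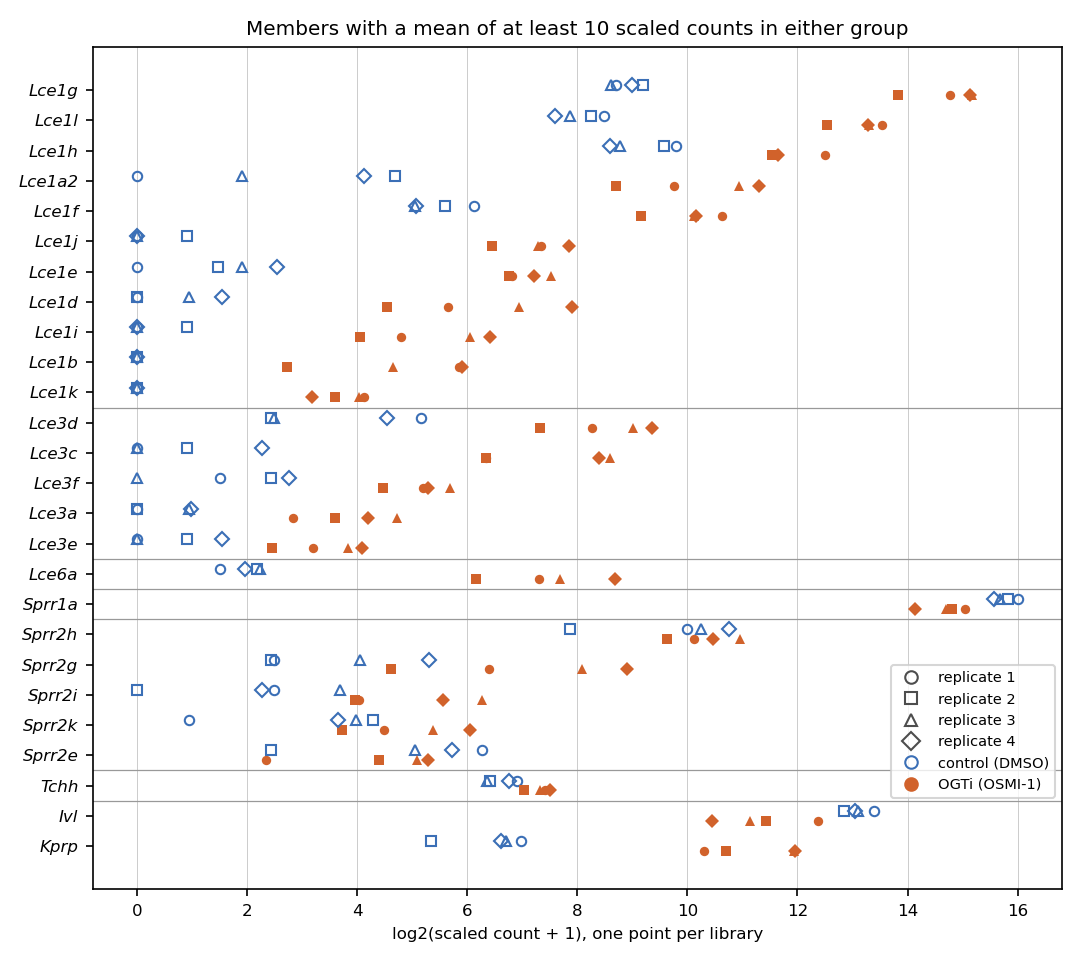
Scaled counts (log2 of count plus 1, horizontal axis) of the 26 members with a mean of at least 10 in either group, one point per library, open blue for control, filled orange for OGTi and a symbol for each replicate. Groups separate for all 17 Lce genes shown, with OGTi to the right, whereas Sprr1a and Ivl lie to the left in OGTi. Groups overlap for Sprr2e, Sprr2g, Sprr2h and Sprr2k.

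The plot of levels by library begins with the Lce1 genes. Values below are scaled counts, that is counts adjusted to a common library size and listed for replicates 1 to 4. Lce1g (chromosome 3, 92657455 to 92659645) went from 416.4, 584.8, 390.4 and 511.6 in control to 28080.4, 14441.5, 36727.4 and 35936.4 in OGTi. The lowest treated library, replicate 2, was still far above the highest control. Means ± SD of the 4 libraries were 475.8 ± 89.4 and 28796.4 ± 10335.3, and the fitted log2 fold change was 5.86 ± 0.35 (SE). Lce1l (92757256 to 92758593) stood at 355, 303.4, 232 and 191.7 in control and at 11917.7, 5943.2, 10039.5 and 9913.9 in OGTi, a log2 fold change of 5.12 ± 0.29. Again replicate 2 was the lowest of the treated libraries. Lce1h (92670522 to 92672372), the most counted Lce gene of control cells, had the smallest fold change of the family, at 2.64 ± 0.25. Its control values were 883.3, 757.2, 439.2 and 383.5 and its OGTi values were 5806.8, 2960.4, 3076.5 and 3202.4, with replicate 1 well above the other treated libraries. Lce1h and Lce1g, whose promoters were among the most alike, thus differed in fold, with ratios of means of 6.11 and 60.5.

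Lce1f and Lce1a2 followed in level. Lce1f (92625350 to 92627657) was at 68.79, 47.49, 32.23 and 32.76 in control and at 1584.3, 572.9, 1107.9 and 1144 in OGTi, with a log2 fold change of 4.58 ± 0.33. Lce1a2 (92575920 to 92577623) was near silent in control, at 0, 24.62, 2.762 and 16.38, and reached 868.5, 414.3, 1955.4 and 2517.8 in OGTi. Its log2 fold change was 7.10 ± 0.86 and ranged from 5.66 to 8.48 over the alternatives, the highest being without replicate 2, and the log2 ratios of pairs 1 to 4 were 9.76, 4.02, 9.02 and 7.18. By contrast, Lce1a1, which lies on the same strand just beyond Lce1b and whose promoter is shown above, had a single count in a single treated library. Lce1e was at 0, 1.759, 2.762 and 4.817 in control and at 111.6, 107.2, 182.1 and 148.2 in OGTi, a log2 fold change of 5.90 ± 0.54 (3.28 by limma on log2 TPM with 1 added, a scale that compresses low genes).

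The remaining Lce1 genes had between 0 and 3 counts in the 4 control libraries together, so their size of change is given as a ratio of counts with a 95% exact interval, or as a bound against a floor of 3 counts over the control group. Both cover counting error only. Lce1j was at 0, 0.8794, 0 and 0 in control and at 160.8, 85.99, 154.5 and 228.6 in OGTi, a ratio of 683 (122 to 27036.5). Lce1i was at 0, 0.8794, 0 and 0 and then at 26.63, 15.63, 65.11 and 83.85, a ratio of 205 (36.3 to 8148.2). For Lce1d, control values of 0, 0, 0.9208 and 1.927 stood against 49.16, 22.33, 122.5 and 237.8, a ratio of 153 (52.1 to 747). These 3 genes went from the edge of detection to at least 15.63 scaled counts in each treated library. Lce1b had no count in control and 56.33, 5.584, 24.28 and 58.58 scaled counts in OGTi, and was at least 52.5-fold higher. Lce1k, also without a control count, reached 16.39, 11.17, 15.45 and 8.04 and was at least 18.5-fold higher, but was no longer called when replicate 1, 2 or 3 was left out. Lce1c had 4, 2, 10 and 6 counts in OGTi and none in control, at least 8.8-fold higher, and was not called. Lce1m, which lies apart from the other Lce1 genes beyond the Lce3 genes, had 1 count in control and 5 in OGTi.

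The Lce3 genes code for the proteins known to be induced when the skin barrier is broken. Lce3d (92864697 to 92865812) was the most counted, at 34.86, 4.397, 4.604 and 22.16 in control and at 308.3, 158.6, 517.5 and 657 in OGTi, with a log2 fold change of 4.80 ± 0.52. Lce3c (92851793 to 92853040), which carries a pair of NRF2 cores in the sequence above, was at 0, 0.8794, 0 and 3.854 and then at 79.88, 80.4, 384 and 334.3, a log2 fold change of 7.43 ± 0.62. For both, replicates 3 and 4 were the highest treated libraries. The log2 fold change of Lce3d was 5.51 without replicate 1, and that of Lce3c was 6.69 without replicate 3, 8.61 without replicate 4 and 4.20 at the lowest over the alternatives. Lce3f was at 1.835, 4.397, 0 and 5.781 in control and at 35.84, 21.22, 50.76 and 37.91 in OGTi, a log2 fold change of 3.62 ± 0.80 that was 2.97 without replicate 3, and was not called without replicate 1. Lce3a was at 0, 0, 0.9208 and 0.9635 against 6.145, 11.17, 25.38 and 17.23, a ratio of counts of 32.2 (8.49 to 273), and was not called without replicate 3. Lce3e was at 0, 0.8794, 0 and 1.927 against 8.193, 4.467, 13.24 and 16.08, a ratio of 15.1 (4.79 to 76.5), and was not called, although 6 of the alternatives called it. Lce3b had no count in any library. Within 100-base stretches, 21.9% to 43.0% of the annotated sequence of Lce3c, Lce3d, Lce3e and Lce3f was shared with another member, so reads can be divided between these 4 and their separate levels are uncertain. For the Lce1 genes, no more than 4.9% was shared. Genes outside the complex were not searched.

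Lce6a (92527388 to 92528975), the Lce gene nearest to Ivl, was at 1.835, 3.518, 3.683 and 2.89 in control and at 156.7, 70.35, 205.2 and 411.2 in OGTi, with a log2 fold change of 5.89 ± 0.49 (2.90 by limma on log2 TPM with 1 added). Kprp (92730381 to 92734554), a keratinocyte proline-rich protein encoded between Lce1k and Lce1l, followed the Lce genes around it. It was at 124.7, 39.57, 103.1 and 96.35 in control and at 1266.8, 1672.9, 3924 and 3975.4 in OGTi, a log2 fold change of 4.85 ± 0.40. As with Lce3c and Lce3d, replicates 3 and 4 were highest.

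Summed over the 21 genes, which does not depend on how reads were divided between copies, Lce reached 45962.7 ± 14261.4 scaled counts in the OGTi group, against 1447.0 ± 350.1 in the control group (mean ± SD of 4 libraries). The log2 ratio was 4.80, 3.84, 5.62 and 5.54 in pairs 1 to 4, with a mean of 4.95 ± 0.83 (SD). Replicate 2 gave the smallest ratio. Without Lce1g, the summed Lce1 genes had a mean log2 ratio of 4.12 ± 0.73, and the summed Lce3 genes one of 5.07 ± 1.56. The number of Lce genes with a count rose from a mean of 11 (7 to 14) per control library to 19 (18 to 20) per OGTi library.

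Sprr1a, a crosslinking bridge of the envelope, was the most abundant member in control and was lower in OGTi. It (92390424 to 92393208) stood at 65795.5, 58016.1, 52480.9 and 48605.4 scaled counts in control and at 33882.1, 28654, 26490.3 and 18042.8 in OGTi. Each treated library lay below each control library. The log2 fold change was -1.10 ± 0.18 (SE), a mean ratio of control to OGTi of 2.10. Ivl (92478209 to 92481042), the early scaffold protein, was at 10753.9, 7376.3, 8737.6 and 8448.7 in control and at 5315.2, 2746, 2253.3 and 1403.6 in OGTi, with a log2 fold change of -1.74 ± 0.27. Replicate 4 was the lowest treated library for both, and both were called lower under every alternative run. Both carry AP-1 letters at -116. Such letters were found in 16 of 45 member promoters in all, among them Sprr2i, which was called higher. Prr9, a gene of the region that also rose, carried them at -138. The part of these letters was not tested.

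Sprr2 genes code for short proline-rich bridges that are also made by stressed epithelia of the bile duct and gut. They differed among themselves, and their members are given singly. Sprr2h (92292992 to 92294631), which held most Sprr2 counts, was at 1020.9, 231.3, 1208.1 and 1727.5 in control and at 1115.3, 788.4, 1981.9 and 1418.6 in OGTi. The groups overlapped, and the log2 fold change was 0.57 ± 0.32. Sprr2g was called higher, from 4.586, 4.397, 15.65 and 38.54 to 82.95, 23.45, 269.3 and 477.8, a log2 fold change of 3.66 ± 0.38, although its treated replicate 2 lay below control replicate 4. Sprr2i was also called higher, from 4.586, 0, 11.97 and 3.854 to 15.36, 14.52, 76.14 and 45.95, a log2 fold change of 3.00 ± 0.67. That call was lost without replicate 3 or without replicate 4, where the values were 3.21 and 2.80. Sprr2k was at 0.9173, 18.47, 14.73 and 11.56 in control and 21.51, 12.28, 40.83 and 65.47 in OGTi, a log2 fold change of 1.70 ± 0.72 with overlapping groups that was 2.50 and called without replicate 2 and 1.18 without replicate 1. Sprr2e was at 76.13, 4.397, 32.23 and 52.03 against 4.096, 20.1, 33.1 and 37.91. The log2 fold change of Sprr2e was -0.50 ± 0.82 and turned to 0.42 without replicate 1.

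Of the other Sprr2 genes, Sprr2a1 (12 counts in control, 22 in OGTi), Sprr2a2 (28 and 20), Sprr2b (2 and 8), Sprr2f (13 and 2) and Sprr2j-ps (2 and 15) were tested and not called. Sprr2a1 and Sprr2a2 shared 93.1% and 90.6% of their 100-base stretches with another member, so their counts cannot be separated. Sprr3 had 20 counts in control and 10 in OGTi and was not called. Sprr1b, Sprr2a3 and Sprr2d were below 10 counts, and Sprr4 had none. All 16 Sprr genes together had means ± SD of 57362.7 ± 7133.1 in control and 28427.0 ± 6212.4 in OGTi, with a mean log2 ratio of -1.03 ± 0.20 over pairs, which is the course of Sprr1a. The 12 Sprr2 genes alone had log2 ratios of summed scaled counts of 0.18, 1.66, 0.89 and 0.16 in pairs 1 to 4, with a mean of 0.73 ± 0.71 (SD). Without Sprr2h the ratios were 0.69, 0.98, 2.23 and 2.45, with a mean of 1.59 ± 0.88, so that summed Sprr2 counts were higher in all 4 pairs. In TPM, the summed Sprr2 genes stood at 104, 25.6, 126 and 177 in control and at 82.5, 76.7, 187 and 169 in OGTi, lower in pairs 1 and 4 and higher in pairs 2 and 3.

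**Figure D2:**
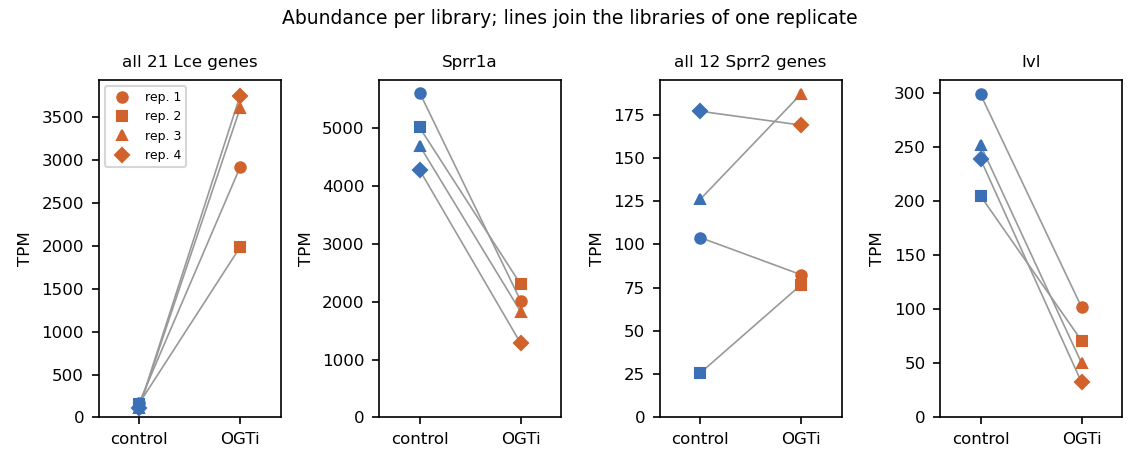
Abundance in TPM (vertical axes, each from 0) of the summed Lce genes, Sprr1a, the summed Sprr2 genes and Ivl in control and OGTi, with a line joining the libraries of each replicate. Lce rises in all 4 pairs, from at most 168 TPM to at least 1984.3 TPM, Sprr1a and Ivl descend in all 4, and Sprr2 lines run both ways in TPM.

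Corrected for length, the order of the members by TPM changed between groups. In control cells, Sprr1a was first at 4903.3 ± 564 TPM, above 99.9% of detected genes, followed by Ivl at 249 ± 38.7, Sprr2h at 98.6 ± 59.1, Lce1h at 63 ± 23.6, Lce1g at 33.6 ± 6.1 and Lce1l at 30 ± 7.48 (SD, n = 4). Sprr1a and Ivl were each separated from the next gene, whereas the ranges from Sprr2h to Lce1l overlapped between neighbours in the order. In OGTi cells, Sprr1a at 1859.5 ± 430 TPM and Lce1g at 1603.5 ± 555 TPM overlapped, followed by Lce1l at 824 ± 144 and Lce1h at 302 ± 71.8, each apart from the next. Lce1a2 at 115 ± 79.6, Sprr2h at 98.7 ± 37, Lce1f at 85.9 ± 23.6 and Ivl at 64 ± 30 then overlapped in turn. Lce1g thus passed from the fifth to the second place, and Ivl from the second to the eighth.

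**Figure D3:**
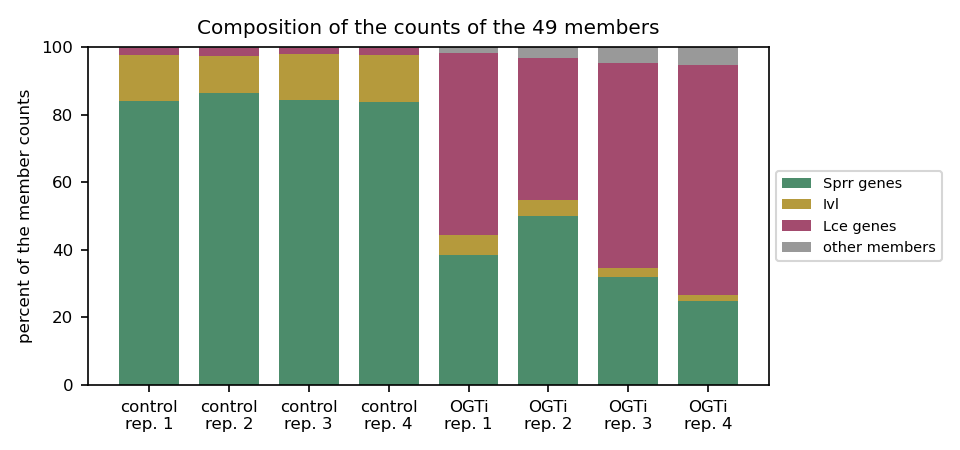
Share of the counts of all 49 members (vertical axis, percent) that fell on Sprr genes, Ivl, Lce genes and other members in each library. Lce genes take 1.74% to 2.57% in the control libraries and 42.2% to 68.1% in the OGTi libraries.

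The total counts of the complex moved by less than the spread between pairs. Summed scaled counts of all members were 67832.8 ± 8431.9 in control, 80196.5 ± 14874.7 in OGTi, and their log2 ratio over pairs was 0.23 ± 0.31 (means ± SD). Its makeup differed, as the plot of shares by library shows. Lce genes went from 2.12% ± 0.356 to 56.3% ± 11 of member counts, Sprr genes from 84.6% ± 1.18 to 36.4% ± 10.6, and Ivl from 13% ± 1.43 to 3.68% ± 1.89 (SD, n = 4). Within the Lce family, the share of Lce1g went from 34% ± 8.09 to 61.9% ± 5.18 and that of Lce1h from 41.5% ± 7.37 to 8.79% ± 3.53, while Lce1l held 18.7% ± 2.2 and 21.1% ± 3.36.

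The S100-fused genes and loricrin, which mark the granular layer of skin, stayed at or near 0. Tchh, a hair-sheath protein, was the exception at 118.3, 84.42, 81.03 and 106.9 scaled counts in control and 169, 129.5, 160 and 181.5 in OGTi. These groups did not overlap, the log2 fold change was 0.72 ± 0.26, and Tchh was not called except by DESeq2 and with the length trend removed. Flg (2 counts), Flg2 (6), Hrnr (7) and Rptn (2) had counts in OGTi replicate 4 alone, the library with the most genes detected. Crnn had 12 counts in control replicate 2 alone, a fitted log2 fold change of -3.77 ± 2.37, and Tchhl1 had 3 in control replicate 3 alone. Lor had 3 counts in control and 8 in OGTi, Lelp1 had 6 and 1, and Smcp, a sperm protein, had none. Lor, which is among the most abundant transcripts of skin, was thus near the floor in the same libraries in which Lce1g stood above 99.7% of detected genes.

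**Figure D4:**
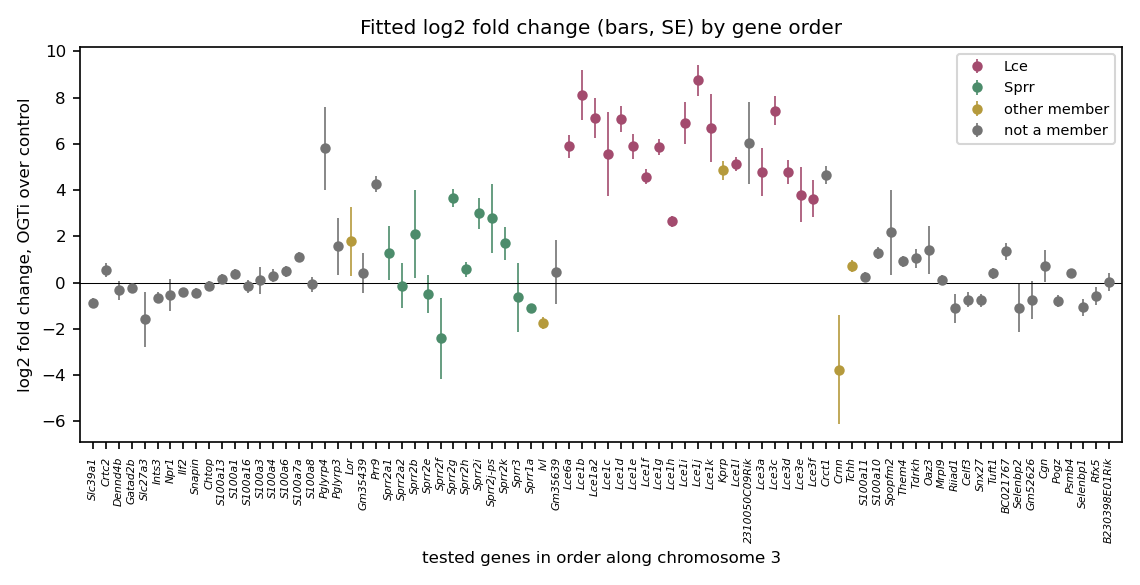
Fitted log2 fold change of OGTi over control (vertical axis, bars SE) of each tested gene of the complex and of the 20 nearest tested genes on either side, in order along chromosome 3. Lce genes form a stretch above 2.6 that includes Kprp and ends at Crct1, Sprr genes run from -2.42 to 3.66 with a median of 0.93, and flanking genes have medians of -0.11 before and 0.18 after the complex.

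The members spanned 1391.7 kb of chromosome 3 (91987578 to 93379287, GRCm39), and the Lce genes 399 kb of it. Between the outermost members the annotation lists 48 further genes, of which 9 were in the deposited tables and 5 were tested. Crct1, a cysteine-rich gene next to Lce1m, rose from 946.6, 758, 373.9 and 302.5 scaled counts to 15685.5, 9377.1, 13830 and 17065.4, with a log2 fold change of 4.67 ± 0.39 and an edgeR adjusted p of 2.01e-04. Prr9, a proline-rich gene between Lor and Lelp1, rose from 6.421, 8.794, 11.97 and 17.34 to 118.8, 111.7, 328.8 and 345.7, a log2 fold change of 4.25 ± 0.34 with an edgeR adjusted p of 2.01e-04. Both kept their call under all 13 alternatives. Increases were thus found on both sides of the Sprr genes, with Prr9 before them and the Lce stretch after them. The uncharacterised 2310050C09Rik, between Lce1l and Lce3a, had no count in control and 15.36, 4.467, 0 and 16.08 scaled counts in OGTi (edgeR adjusted p of 0.0559, called in 5 of 12 alternatives). The long noncoding RNAs Gm35439 and Gm35639 were not called, with log2 fold changes of 0.42 ± 0.87 and 0.45 ± 1.39, although Gm35639 overlaps the start of the Lce1 cluster on the other strand.

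Genes on either side of the complex are shown in the plot by gene order. Of 20 tested on each side, 2 were called before it and 3 after it, where 18.4% of all genes tested were called. Of the 20 nearest tested genes before it, S100a7a was higher (log2 fold change 1.11 ± 0.20, edgeR adjusted p = 0.00443) and Slc39a1, a zinc transporter, was lower (-0.89 ± 0.23, edgeR adjusted p = 0.0212). Among the 20 nearest after it, S100a10, the partner of annexin A2, was higher (1.28 ± 0.25, edgeR adjusted p = 0.00667), as were Them4 (0.91 ± 0.25) and BC021767 (1.35 ± 0.36), both at an edgeR adjusted p of 0.0279. Their neighbour S100a11, which stood at 26902.4 scaled counts in control and 32513.1 in OGTi, was not called (0.25 ± 0.19). The median log2 fold change was -0.11 before and 0.18 after the complex. S100a7a was not called without the replicate block, and Slc39a1, Them4 and BC021767 each lost their call in 4 to 7 of 13 alternatives. Between and beside the members, 7 genes were called in all, and 4 when replicate 3 or replicate 4 was left out.

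Genes that assemble the cornified envelope but lie elsewhere in the genome were called in both directions. Of 42 such genes in the tables, 24 were tested, of which 5 were higher and 3 were lower by edgeR, where 8.13% and 10.2% of all genes tested were. By DESeq2, 6 were higher and 3 lower. By limma on log2 TPM, 2 were higher and 3 lower with 1 added, and 3 and 4 with 0.1 added. Their median log2 fold change was 0.51 against 0.01 for all genes. Those higher were Asprv1, the protease that processes filaggrin (3.65 ± 0.81, edgeR adjusted p = 0.0118), the epidermal lipoxygenase Aloxe3 (2.45 ± 0.57, 0.0144), the fatty acid elongase Elovl4 (1.54 ± 0.35, 0.0136), suprabasin Sbsn (1.46 ± 0.28, 0.00606) and the ceramide synthase Cers4 (0.91 ± 0.21, 0.016). Those lower were Casp14, the caspase of cornification (-2.26 ± 0.38, edgeR adjusted p = 0.00325), envoplakin Evpl (-2.14 ± 0.65, 0.0445) and the crosslinked annexin Anxa1 (-1.17 ± 0.22, 0.00572). Asprv1 and Evpl stood at low levels, at 2.078 and 21.23 mean scaled counts in control and 23.77 and 5.2 in OGTi. Casp14 and Sbsn kept their calls under all 13 alternatives, whereas Elovl4 lost its call in 4, Aloxe3 and Cers4 in 3 each and Asprv1 in 1. Anxa1 was not called without the replicate block (adjusted p = 0.0718), Evpl was lost in 7 of 13, and the list had 5 calls without replicate 3 and also 5 without replicate 4.

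The transglutaminase that crosslinks the envelope in skin, Tgm1, had mean scaled counts of 1.38 in control and 5.322 in OGTi (log2 fold change 1.61 ± 1.32, edgeR adjusted p = 0.453). The widely expressed Tgm2 stood at 46514.1 and 36161.2 (-0.42 ± 0.21, edgeR adjusted p = 0.194). Values for Tgm5 (4.18 ± 2.27, counts in OGTi replicate 1 alone), corneodesmosin Cdsn (2.84 ± 0.97) and plakophilin Pkp1 (2.45 ± 1.13) did not pass the test, with edgeR adjusted p of 0.258, 0.0689 and 0.174.

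**Figure D5:**
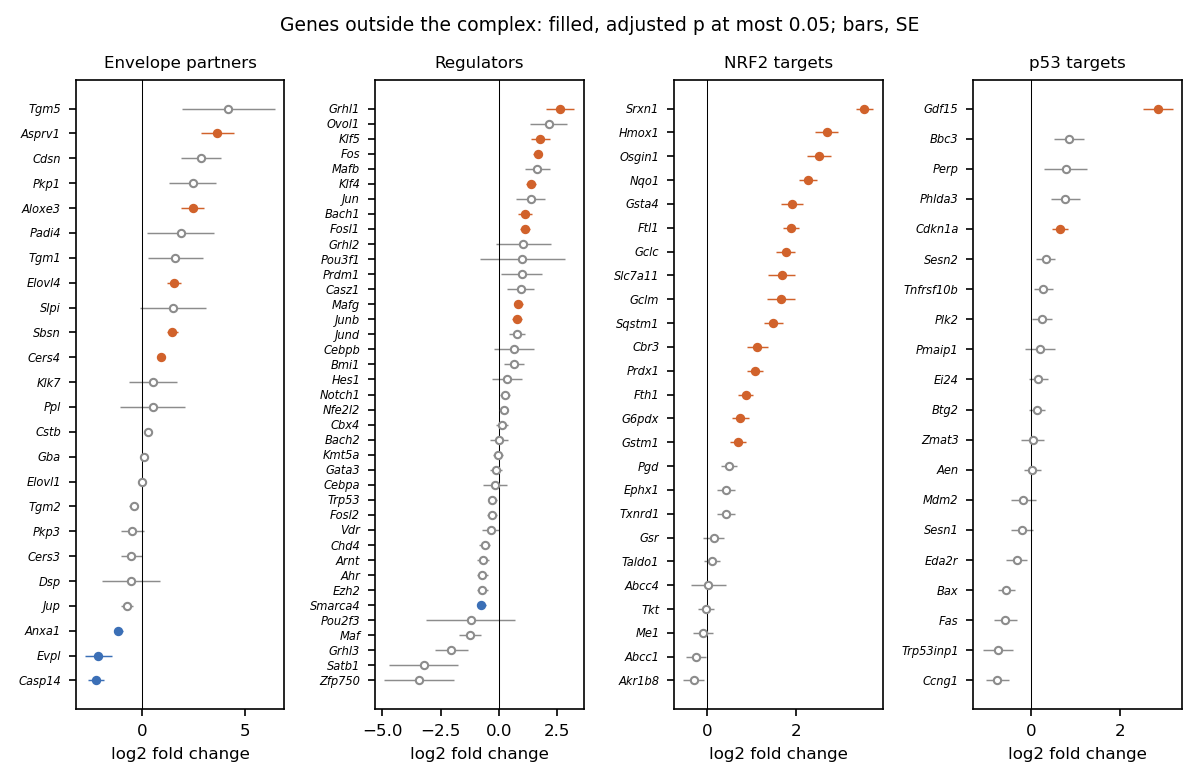
Fitted log2 fold change of OGTi over control (horizontal axes, bars SE) for tested genes of 4 lists outside the complex (a single regulator is not shown), filled in orange where called higher, in blue where called lower, and open where not called. NRF2 targets hold 15 filled points to the right of 0, and p53 targets hold 2.

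Regulators known from epidermal differentiation were examined next. Of 40 tested, 8 were higher and 1 was lower by edgeR, where 8.13% and 10.2% of all genes tested were. The split depended on the fit, with 9 higher and 0 lower when scaled by upper quartiles, 6 and 6 when scaled by library totals, 10 and 5 by DESeq2, and 4 and 5 or 5 and 5 by limma on log2 TPM with 1 or 0.1 added. Grhl1, a grainyhead factor of the barrier, rose from a mean of 7.933 to 54.65 scaled counts (log2 fold change 2.64 ± 0.60, edgeR adjusted p = 0.0126). Krüppel-like factors rose, Klf5 by 1.79 ± 0.41 (edgeR adjusted p = 0.013) and Klf4, which drives late barrier genes, by 1.39 ± 0.21 (0.00217). Among AP-1 subunits, Fos rose by 1.67 ± 0.21 (edgeR adjusted p = 8.76e-04), Fosl1 by 1.12 ± 0.22 (0.00623) and Junb by 0.78 ± 0.22 (0.0332), while Jun (1.37 ± 0.63, 0.163), Jund (0.78 ± 0.33, 0.134) and Fosl2 (-0.29 ± 0.23, 0.422), which was lower in 3 of 4 pairs, did not pass the test. The mean of Fos went from 1306.6 to 4324.7 scaled counts and that of Fosl1 from 3526.5 to 7093.3. The NRF2 partner Mafg (0.85 ± 0.20, 0.0164) and the NRF2 competitor Bach1 (1.12 ± 0.29, 0.024) rose by the same edgeR test. Smarca4, the ATPase of a chromatin remodeller, fell by 0.75 on the log2 scale (SE 0.19, edgeR adjusted p = 0.0237).

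Other regulators did not pass the test in this fit. Grhl3 had mean scaled counts of 54.32 in control and 10.63 in OGTi (log2 fold change -2.04 ± 0.70, edgeR adjusted p = 0.073) and the aryl hydrocarbon receptor Ahr 351.6 and 223 (-0.70 ± 0.24, 0.0747). Nfe2l2, the gene of NRF2 itself, stood at 12334.7 and 14351.7 (0.22 ± 0.18, 0.458). Zfp750 (-3.42, edgeR adjusted p = 0.147), Satb1 (-3.22, 0.164) and Ovol1 (2.14, 0.0944) were at 17.3 mean scaled counts or fewer in both groups. Grhl3 was called lower in 5 of 13 alternatives, Ahr in 2 of 13 and Zfp750 in 2 of 12. Klf4 and Fos kept their calls under all 13 alternatives, whereas Junb lost its call in 6, Bach1, Mafg and Smarca4 in 5 each, Grhl1 in 3 and Klf5 in 2. The number of regulators called was 5 without replicate 3, 4 without replicate 4 and 15 by DESeq2, and Fosl1 lost its call in 1 alternative, without the replicate block (adjusted p = 0.104).

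Targets of NRF2 were higher in 15 of 25 cases by the edgeR test, where 8.13% of all genes tested were higher. None was lower, also at an unadjusted p under 0.05 and by DESeq2, whereas limma on log2 TPM called Akr1b8 lower. The list median log2 fold change was 0.86. Srxn1, which repairs oxidised peroxiredoxins, rose by 3.53 ± 0.20 on the log2 scale, its scaled counts being 1392.3 ± 62.84 (mean ± SD of 4 libraries) in control and 16231.4 ± 2525.8 in OGTi. Next came Hmox1 for haem breakdown (2.68 ± 0.25), Osgin1 (2.51 ± 0.26), the quinone reductase Nqo1 (2.27 ± 0.20), the glutathione transferase Gsta4 (1.90 ± 0.25) and the ferritin chain Ftl1 (1.87 ± 0.18). Their edgeR adjusted p ranged from 3.73e-05 for Srxn1 to 9.69e-04 for Gsta4, and all 6 were higher in 4 of 4 pairs. The glutathione synthesis genes Gclc (1.76), Gclm (1.66) and Slc7a11 (1.67), and Sqstm1 (1.48), Cbr3 (1.12), Prdx1 (1.07), Fth1 (0.86), G6pdx (0.74) and Gstm1 (0.68) were the others. G6pdx lost its call in 5 and Gstm1 in 6 of 13 alternatives, and the other 13 kept theirs.

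Targets of p53 were examined because human LCE1 genes are known to respond to it. Of 20 tested, 2 were higher by edgeR, a share close to the 8.13% of all genes, and the list median was 0.15. None was lower in this fit or by DESeq2, although 2 had an unadjusted p under 0.05 and a lower value. Bax and Ccng1 were called lower by edgeR with library totals alone, Ccng1 with no low-count filter, Bax with the length trend removed and without replicate 1, and limma called both of them and Fas lower. Gdf15, a stress cytokine, rose by 2.84 ± 0.33 (edgeR adjusted p = 5.89e-04) and the cell cycle inhibitor Cdkn1a by 0.66 ± 0.18 (0.0297), the latter losing its call in 7 of 13 alternatives. Mdm2, a direct p53 target, was at -0.17 ± 0.28 (edgeR adjusted p = 0.739). Bbc3 (0.85), Perp (0.78), Phlda3 (0.77), Ccng1 (-0.75) and Trp53inp1 (-0.74) had the next largest values and were not called in this fit. Phlda3 was called higher with no low-count filter and without replicate 2.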

How the data were processed

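Stranded, paired-end libraries of polyadenylated RNA from 8 cultures were examined. The authors aligned reads with Bowtie2 2.3.5.1 to mm39 (GRCm39) and ran RSEM 1.3.1, as their methods and processing notes state. The deposited tables give expected counts (estimated per gene, divided where reads fit several genes) and TPM, with gene lengths used here for the length trend. A deposited comparison table holding the authors' DESeq2 1.36.0 fold changes and p-values was not used, nor were its 16 columns of per-sample values.

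Expected counts were rounded and fitted in edgeR 4.0.16 (R 4.3.3) with TMM scaling, genes with a total of at least 10 counts, the replicate number as a block, and Benjamini-Hochberg adjustment over all 19963 genes tested. The SE was the log2 fold change divided by the root of F. The pairing is stated in the study's methods, and same-numbered libraries deviated together (correlations across genes of 0.187, 0.276, 0.21 and 0.445). Sums were compared as log2 of scaled counts plus 1. Alternatives used DESeq2 1.42.0, limma 3.58.1 on log2 TPM with 1 or 0.1 added, other scalings and filters, no block, and each replicate left out. The fit was also run on simulated data, and the outcome of that run is not reported here.

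Members and gene lists were chosen with earlier results of these data known. Values by library are given for members with a mean of at least 10 scaled counts in either group, and all other members are named with counts. From the lists, called genes, the 6 largest changes and defining genes are named. A single tested regulator is not reported here. Coordinates come from the GENCODE annotation of GRCm39, whereas the tables carry RefSeq transcripts.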

Additional observations from a re-analysis of the deposited data

Results flagged for a closer look

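In 60 groups of 4 libraries, 4 had a library whose gap to the nearest other exceeded Dixon's limit. For independent groups of continuous values, chance gives about 1 in 20 groups, or 3. The groups here include sums along with their own genes, and some hold counts near 0, so no conclusion is drawn from the comparison. OGTi replicate 1 held 5806.8 scaled counts of Lce1h, where the other treated libraries held 2960.4 to 3202.4. The summed Lce1 genes reached 24586.9 scaled counts in OGTi replicate 2 but 48683.7 to 53486.5 in the others. Lce1i and Lce1j each were at 0.8794 scaled counts in control replicate 2, a single count, against 0 in the other controls.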

How the results depend on the processing

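Over the alternatives, 16 to 22 members were called higher, and 2 lower throughout. Of 26 members with values by library, 19 never changed their call, and no called member turned in sign. Fold changes of these 26 moved by more than the spread between replicates in 31 of 334 cases, 26 of them by limma on log2 TPM, where with 1 added Lce1e was 3.28, Lce6a 2.90, Kprp 3.83, Sprr2g 2.44 and Lce3f 1.75. The summed Lce ratio (log2) lay between 4.47 and 5.32, and the summed Sprr ratio was -1.03, but -1.35 with TPM summed and either 1 or 0.1 added. The number of changed genes was 3666, with 1905 to 3124 when a replicate was left out, 4859 by DESeq2, 4555 with no low-count filter, 4167 with library totals alone and 4651 or 4709 by limma with 1 or 0.1 added. The same ranges were 5 to 7 for envelope partners (8 in the fit reported, 5 by limma on log2 TPM plus 1), 4 to 9 for regulators (9, and 15 by DESeq2), 1 to 3 for p53 targets (2, and 4 with no low-count filter or by limma with either 1 or 0.1 added), and 4 to 8 for genes between and beside the members (7, and 12 with no filter or 11 by limma with 0.1 added). By DESeq2, 6 envelope partners were called higher and 3 lower. NRF2 targets called stayed between 13 and 17. Without the replicate block, 2991 genes were called, with 21 members higher and 2 lower, and 1 p53 target. Lce3e was called by upper-quartile scaling, DESeq2, no filter, no block and limma with 1 or 0.1 added. Sprr2k was called with no filter and without replicate 2. The causes were not tested. Depth limits the genes with few control counts, whose fold changes are imprecise.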
